A study of Mus musculus with 12 samples.

Results

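The G-CSF response of neutrophils was compared between 2 genotype labels, gene by gene. For each gene the measure was the interaction: the log2 change with G-CSF in LysMcre-labelled libraries minus the log2 change in floxed libraries. The members are all genes whose mean over the 12 libraries was at least 10 normalized counts (gene reads divided by 1 size factor per library), which was 13915 of the 13935 rows of the table. A gene was called when the adjusted p (limma, Benjamini-Hochberg over all 13915 genes) was under 0.05. By this rule 3112 genes (22.4% of those tested) responded differently in the 2 genotypes. They were placed in 5 classes by their 2 responses: 2201 amplified (same direction, larger in LysMcre-labelled libraries), 65 blunted (same direction, smaller), 67 reversed (opposite directions), 661 responding in LysMcre-labelled libraries only and 109 responding in floxed libraries only. In the other 9, neither response passed on its own. The classes follow from the same fit as the calls and are given as descriptions.

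Granulocyte colony-stimulating factor (G-CSF) drives the production and mobilisation of neutrophils. Its receptor has no kinase of its own: it activates Janus kinases (JAK), which phosphorylate STAT factors, chiefly STAT3, that enter the nucleus and switch on target genes. One of those targets, Socs3, encodes an inhibitor that binds the receptor and its kinase and closes a feedback loop. Loss of this inhibitor is known to prolong STAT3 signalling after G-CSF in myeloid cells.

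The cells were mouse bone marrow neutrophils from the femur, sorted on CD11b and Ly6G. Both genotypes carry a Socs3 allele flanked by loxP sites (Socs3fl/fl); in the LysMcre group a Cre recombinase sits in the lysozyme 2 (Lyz2) locus, which is active in neutrophils, monocytes and macrophages. Each genotype was cultured for 8 h in RPMI with 10% fetal bovine serum, without addition or with 10 ng/ml mouse recombinant G-CSF, giving 4 groups of 3 libraries. No age, sex or number of mice is given in the labels, and none says that the 3 libraries of a group are separate mice, so p-values reflect how much these libraries vary, and that variation may be technical only. The titles of the 3 LysMcre G-CSF libraries name neither the floxed allele nor a clear treatment, and those libraries were placed by their descriptions. For 1 LysMcre-labelled untreated library the number in its title (2) and that in its column (3) disagree; replicate numbers follow the titles.

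Socs3 itself (chromosome 11) did not bear out its label. Floxed libraries held 225, 201 and 248 normalized counts without G-CSF and 21391, 18533 and 18588 with it. LysMcre-labelled libraries held 313, 311 and 253 without G-CSF and 35984, 37668 and 38354 with it, so no LysMcre-labelled library was below a floxed one under the same condition. Without G-CSF the genotypes did not differ past the threshold for Socs3 (log2 difference 0.38, adjusted p = 0.329), and with G-CSF the LysMcre-labelled level was higher by 0.94 log2 (adjusted p = 1.06e-06). The G-CSF response of Socs3 was the larger one in LysMcre-labelled libraries, by 0.56 ± 0.13 log2 (SE; adjusted p = 0.00476). A gene total does not show which exons the reads come from, so it cannot tell a full transcript from one lacking the floxed part. "LysMcre-labelled" is used throughout for this reason. Lyz2, the locus that carries Cre, did separate the labels: floxed libraries held 226031, 219608 and 222142 without G-CSF, and LysMcre-labelled libraries held 5646, 6602 and 5911. Lyz2 also had an interaction call of -1.14 log2 (limma, adjusted p = 3.78e-06), kept in all 23 alternatives. Reads of Lyz2 and its near-identical neighbour Lyz1 may not be fully told apart.

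Libraries held 19495754 to 26472118 reads, and a gene with 3 reads stood at 2.57 to 3.54 normalized counts. The first principal component held 77.4% of the variance and separated the treatments. It also separated the genotypes with G-CSF (34.58 to 39.77 in floxed and 82.24 to 83.59 in LysMcre-labelled libraries), while without G-CSF they overlapped. Floxed G-CSF replicate 1 stood apart from its group on the second component (41.12 against 22.51 and 16.05), and without it 2890 genes were called. Neutrophil markers dominated: their summed level was 1134153 to 1902752 normalized counts per library, with Csf3r, the G-CSF receptor, at 158921, 142904 and 138806 in floxed and 146930, 154686 and 164192 in LysMcre-labelled libraries with G-CSF and an interaction of 0.04 (adjusted p = 0.891). Of the 8 neutrophil markers 2 had a positive and 0 a negative interaction call. With quantile normalization the counts were 0 and 3, and with equal totals 1 and 3, so their direction depends on the scaling. Markers of other cells were low but present; with G-CSF the sums ran from 7217 to 10809 (floxed) and 10458 to 17154 (LysMcre-labelled) for 8 B cell genes, and from 18553 to 22789 and 17892 to 20942 for 10 monocyte and macrophage genes. The B cell list had 0 interaction calls of 8 (limma, largest interaction in size -0.31), and the monocyte list had 2 of 10, Cd68 at 0.58 and Ly6c2 at -0.98. Counts of calls in the marker lists are to be read beside the 22.4% called of all genes tested. Lists this short say little about a difference from that share. Progenitor markers summed to 4802 to 5455 with G-CSF in floxed and 8034 to 8524 in LysMcre-labelled libraries, most of it from Kit, the stem cell factor receptor (2918, 3120 and 2760 against 6156, 6356 and 5986), the one called gene of 9 (interaction 1.04). In bulk RNA, fewer cells of a type and less RNA per cell cannot be told apart, and the part of other cell types in the results was not tested.

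Genotype differences were called mainly after G-CSF. Without G-CSF 16 genes (0.115%) differed between the genotypes, and with G-CSF 5013 (36%) did. Of the 3112 interaction calls, 4 also had a genotype call without G-CSF and 3059 with it; these contrasts share libraries with the interaction. The G-CSF response itself passed for 6784 genes (48.8%) in floxed and 8717 (62.6%) in LysMcre-labelled libraries.

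Most genes that responded in both genotypes moved the same way, with the larger change in LysMcre-labelled libraries. The 2 responses share no library, and across the 13915 genes they had a Pearson r of 0.91 and a Spearman rho of 0.86, given as a description since genes are not independent. Of 6180 genes called in both responses, 6113 had the same sign, and in 5149 of these the LysMcre-labelled change was the larger. Genes that rose by 2 to 4 log2 in floxed libraries had a median rise of 2.59 there and 3.28 in LysMcre-labelled libraries (274 genes). Those that fell by 1 to 2 log2 in floxed libraries had a median change of -1.31 there and -1.85 in the other genotype (722 genes). Rises and falls were both larger in LysMcre-labelled libraries, although bins chosen on 1 genotype's values favour that genotype's extremes.

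**Figure D1:**
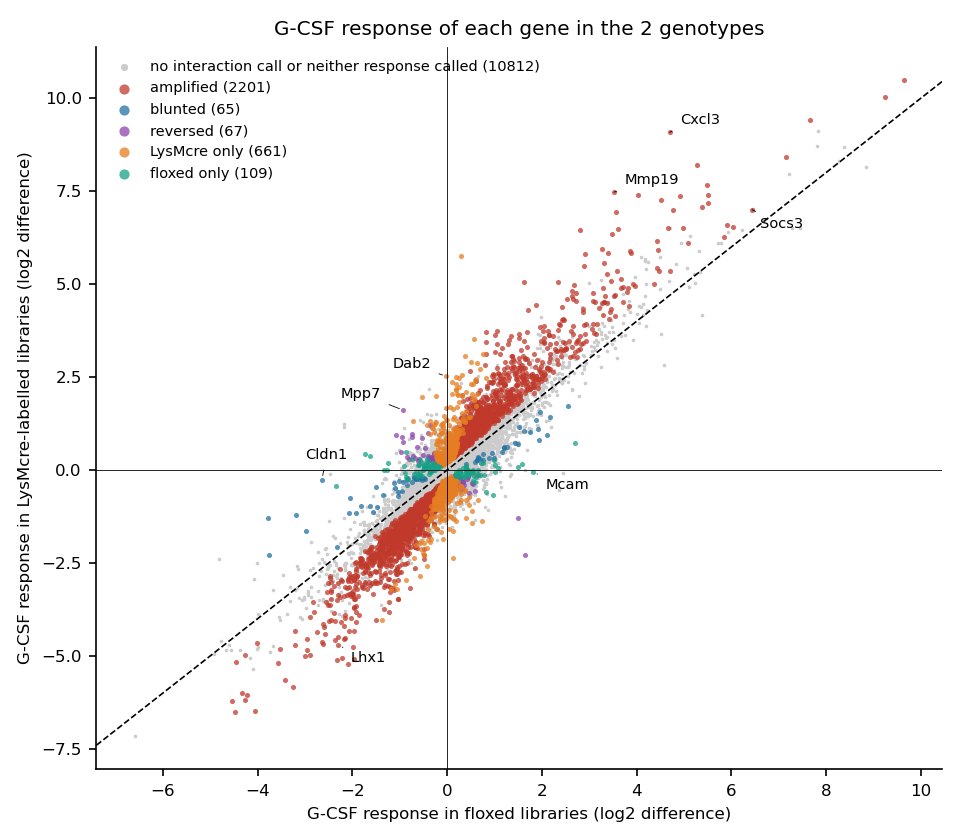
Each point is a gene, placed by its log2 change with G-CSF in floxed libraries (x axis) and in LysMcre-labelled libraries (y axis), coloured by class; the dashed line marks equal responses. The 2201 amplified genes lie farther from 0 on the y axis than on the x axis, on both the rising and the falling side.

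The calls divided almost evenly by sign, 1513 positive (10.9%) and 1599 negative (11.5%). That split rests on the scaling. With every library brought to an equal total, the median interaction of all genes moved from -0.01 to -0.18 log2, and 896 positive stood against 2994 negative calls, a positive share of 23.0% in place of 48.6%. At least 2-fold differences in response were called for 627 genes (4.51%). Passing in 1 genotype alone was not the same as differing: of 2537 genes called in LysMcre-labelled but not in floxed libraries, 1876 had no interaction call, and of 604 called in floxed libraries only, 495 had none.

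**Figure D2:**
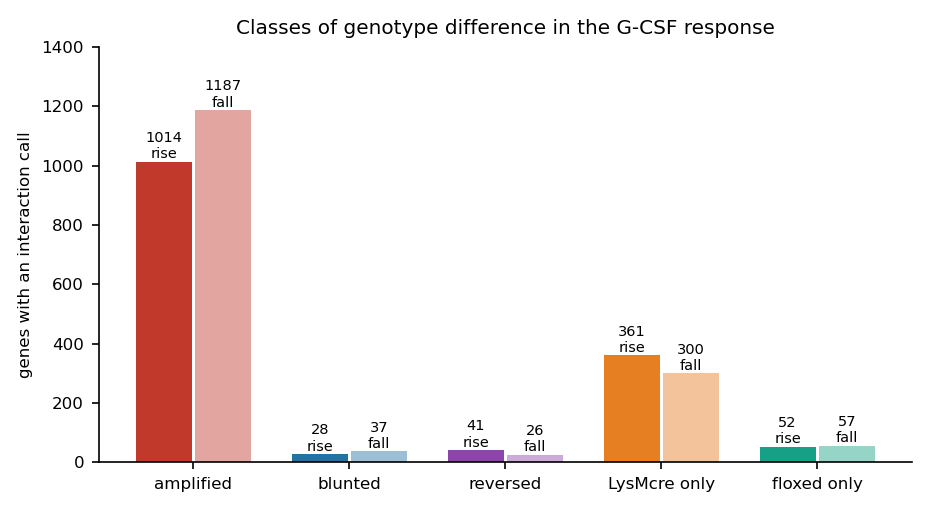
Bars count the genes with an interaction call in each class, divided by whether the response was a rise or a fall (for reversed genes, in LysMcre-labelled libraries; for floxed only genes, in floxed libraries). Amplified genes, 1014 rising and 1187 falling, outnumber the other 4 classes together.

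The 5 named amplified rises began from low levels. Cxcl3, a chemokine that attracts neutrophils through the receptor CXCR2, stood at 6.39, 5.14 and 8.47 normalized counts in floxed libraries without G-CSF and at 175, 179 and 234 with it. LysMcre-labelled libraries began at 7.36, 9.46 and 8.36 and reached 4291, 5708 and 5303. The genotypes overlapped before G-CSF and were far apart after it: the mean ratio with to without G-CSF was 29.4-fold in floxed and 608-fold in LysMcre-labelled libraries (interaction 4.39 ± 0.26 log2, adjusted p = 4.74e-08). Mmp19 encodes a secreted matrix metalloproteinase. It went from 59.7, 67.7 and 44.2 to 569.8, 665 and 755 in floxed libraries and from 76.8, 71.3 and 56.6 to 11443, 12437 and 12733 in LysMcre-labelled ones (interaction 3.95 ± 0.21, adjusted p = 1.61e-08); its exons overlap those of Tmem198b on the other strand, and without a known strand setting its reads are uncertain. Sphk1, the kinase that makes sphingosine 1-phosphate, was close to the 3-read level without G-CSF in both genotypes and reached 66.1, 49 and 51.8 in floxed and 594, 606 and 648 in LysMcre-labelled libraries (adjusted p = 0.000704). Kif1a, a kinesin motor, reached 15.2, 16.6 and 12.2 and 225, 204 and 209, and Pla1a, a phospholipase acting on phosphatidylserine, 10.8, 12.3 and 16.9 and 95.9, 113 and 171. For these 3 genes the level without G-CSF was at or near the 3-read level, so their fitted log2 values depend on the pseudocount of 1.

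**Figure D3:**
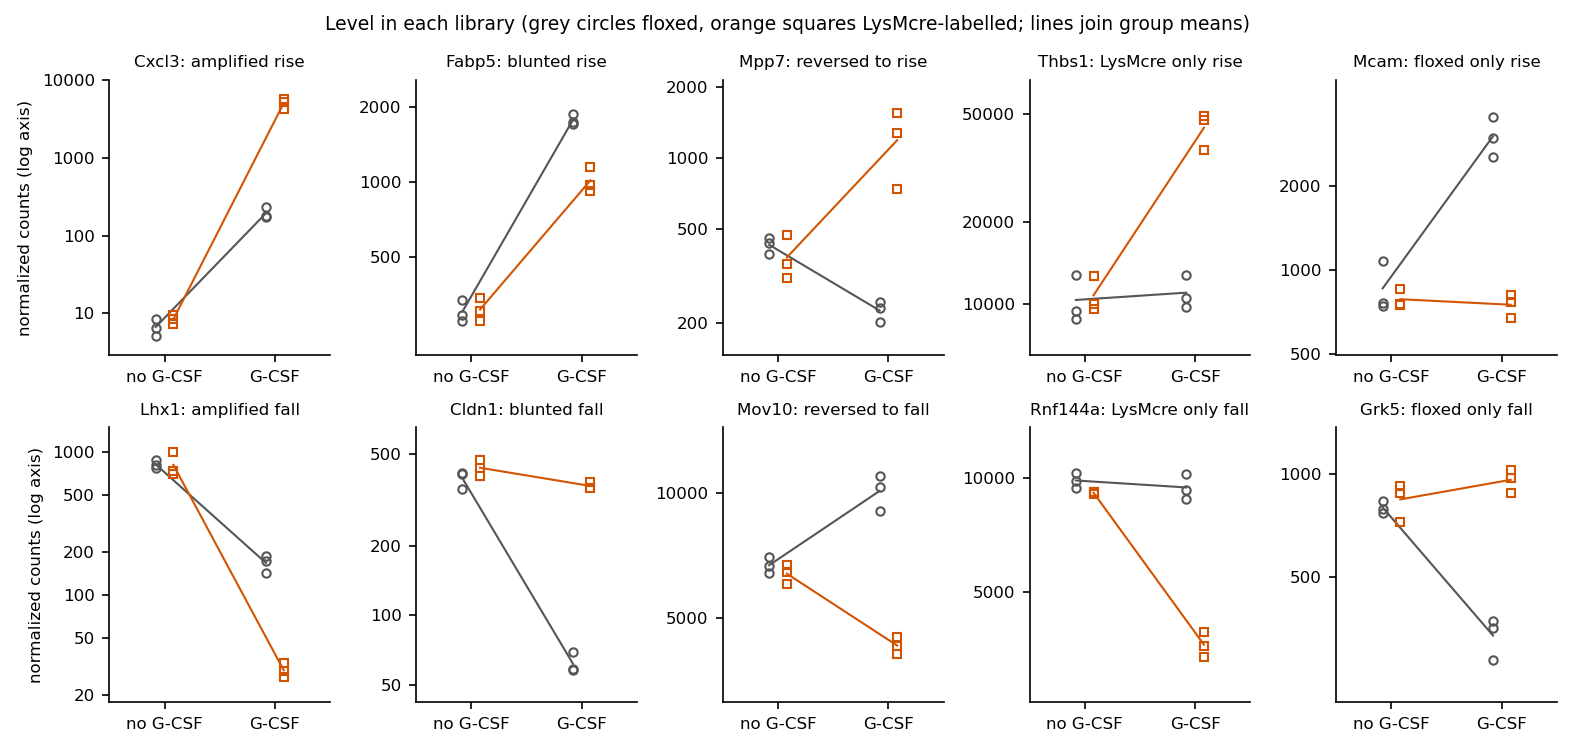
Normalized counts of 1 gene per class and direction in each of the 12 libraries, on log axes that differ between panels; circles are floxed and squares LysMcre-labelled libraries, and lines join group means. Before G-CSF the genotypes lie close together in most panels, and after it the Cxcl3 levels are 175 to 234 against 4291 to 5708.

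Targets of STAT signalling and cytokine feedback genes rose further in LysMcre-labelled libraries. Of 20 such genes 15 had a positive and 1 a negative interaction, beside 10.9% and 11.5% of all genes, and the median interaction was 0.70 beside -0.01 for all genes tested; with equal totals the counts were 14 and 1. The counts of every list that follows are to be read beside these 2 background shares (with equal totals, 896 and 2994 of 13915 genes). This list and the others were chosen with earlier results of these data known. A share above the background is therefore a description and no test of a list. Cish, a SOCS-family inhibitor induced through STAT5, had the largest difference. Its levels were 301, 248 and 233 without and 630.5, 572 and 549.9 with G-CSF in floxed libraries, and 262, 222 and 269 and 2155, 2588 and 2624 in LysMcre-labelled libraries (interaction 2.12 ± 0.15, adjusted p = 2.5e-07). Il1r2, the decoy receptor for interleukin 1, followed with 5664, 5947 and 5689 against 16133, 19199 and 21259 under G-CSF (interaction 1.97, adjusted p = 4.74e-08). Socs1, another JAK inhibitor, showed a response in LysMcre-labelled libraries only: it was at 144, 135 and 131 with G-CSF in floxed libraries, from 119, 116 and 139, and rose from 103, 126 and 117 to 361, 356 and 367 in the others. Il4ra, the interleukin 4 receptor chain, rose in both, to 41840, 36332 and 35302 and to 76718, 84291 and 88911 (interaction 1.16, adjusted p = 1.04e-06). The factors themselves were included: Stat3 rose by 1.51 log2 in floxed and 1.96 in LysMcre-labelled libraries, while Stat5a changed by -0.14 (adjusted p = 0.0726) and by 0.76 (adjusted p = 2.59e-08). Bcl6, a transcriptional repressor, went the other way. It was the one reversed gene of the list, up by 0.33 log2 in floxed libraries and changed by -0.33 in LysMcre-labelled ones. Socs2, Pim3, Cebpd and Ptpn6 had no interaction call.

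**Figure D4:**
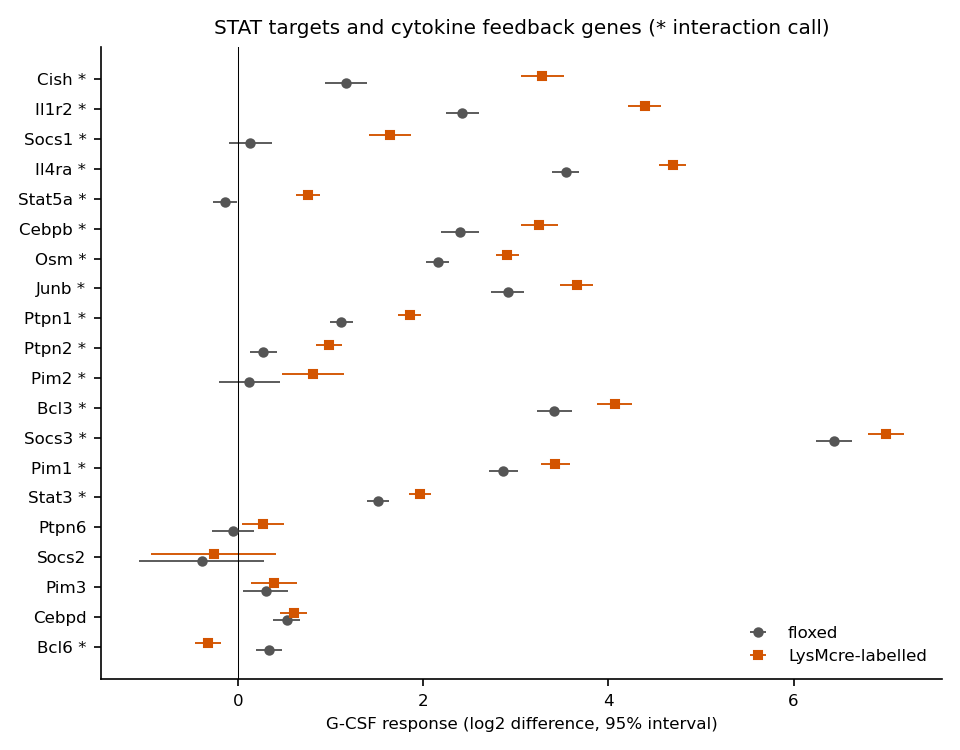
Log2 change with G-CSF of the 20 genes in floxed (circles) and LysMcre-labelled (squares) libraries, with 95% intervals from the fit, ordered by interaction; an asterisk marks an interaction call. Cish, Il1r2 and Socs1 have the widest gaps, and Bcl6 at the bottom has the opposite order.

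Promoters were taken for the first named gene of the amplified rises, the blunted rises and each direction of reversal. STAT list members followed by size of interaction, up to 6 promoters in all. Those with a motif match are printed. Cxcl3 entered as an amplified rise and is not in the STAT list. They are RefSeq sequences (GRCm38.p6) of 300 bases, from 250 before to 50 after the annotated start, printed 5′ to 3′ on the gene's strand. Capitals mark letters that match the STAT motif TTCNNNGAA (Cish, Il1r2), the E-box CACGTG (Cxcl3, Il1r2) or the NF-kappaB consensus (Cxcl3, Il4ra). The 4 windows are chr5:90785851-90786150 (Cxcl3), chr9:107296409-107296708 (Cish), chr1:40085843-40086142 (Il1r2) and chr7:125552021-125552320 (Il4ra), all on the plus strand.
Cxcl3: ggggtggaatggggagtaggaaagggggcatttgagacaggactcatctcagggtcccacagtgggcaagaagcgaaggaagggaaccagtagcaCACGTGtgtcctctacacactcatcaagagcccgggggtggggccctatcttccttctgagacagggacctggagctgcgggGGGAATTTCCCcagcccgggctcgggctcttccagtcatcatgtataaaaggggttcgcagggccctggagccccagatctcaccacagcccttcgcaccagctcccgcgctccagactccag
Cish: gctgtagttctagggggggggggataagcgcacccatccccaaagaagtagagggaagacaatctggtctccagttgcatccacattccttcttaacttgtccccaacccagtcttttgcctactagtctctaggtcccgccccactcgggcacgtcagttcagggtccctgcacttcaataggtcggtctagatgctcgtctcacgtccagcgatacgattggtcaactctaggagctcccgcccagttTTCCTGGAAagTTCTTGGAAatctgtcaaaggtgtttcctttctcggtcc
Il1r2: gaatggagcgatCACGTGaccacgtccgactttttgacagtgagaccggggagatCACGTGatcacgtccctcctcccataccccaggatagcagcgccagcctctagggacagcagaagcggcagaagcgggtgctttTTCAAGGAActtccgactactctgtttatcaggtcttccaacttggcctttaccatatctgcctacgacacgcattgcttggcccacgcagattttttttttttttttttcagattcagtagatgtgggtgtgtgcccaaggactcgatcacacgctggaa
Il4ra: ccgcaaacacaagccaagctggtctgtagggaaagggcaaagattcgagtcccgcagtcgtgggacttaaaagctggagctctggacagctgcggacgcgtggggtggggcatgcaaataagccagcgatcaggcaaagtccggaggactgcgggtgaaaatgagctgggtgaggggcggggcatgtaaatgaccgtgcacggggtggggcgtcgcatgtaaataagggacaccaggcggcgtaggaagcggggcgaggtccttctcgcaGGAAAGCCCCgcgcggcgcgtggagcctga
In Cish a pair of STAT motif matches sits side by side, the first beginning at the annotated start. Il1r2 has 1 STAT match beginning 111 bases before its start and 2 E-box matches, and in Cxcl3 2 overlapping NF-kappaB matches, 1 on each strand, begin 73 and 72 bases before the start. Socs1 and Mov10 held no match to any of the 5 motifs searched on both strands (these 3 with AP-1, TGANTCA, and CRE, TGACGTCA). Fabp5 and Mpp7 had no entry. The STAT motif was present in 6.97% of the 9538 tested genes with a promoter entry, in 8.49% of amplified rises, 5.5% of amplified falls and 9.81% of rises seen in LysMcre-labelled libraries only, and in 4 of 14 called genes of the STAT list. Over all these promoters the E-box was present in 10.2% and the NF-kappaB motif in 5.02%. In amplified rises the shares were 14.1% and 6.27%, and in amplified falls 9.09% and 3.93%, so a higher share in amplified rises was not particular to STAT. A match is a description of letters, not a site of binding.

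Among 19 JAK-STAT kinases, factors and cytokine receptor chains, interferon receptors included, 8 had a positive and 0 a negative interaction (limma, median 0.30, and 5 and 2 with equal totals). Jak2, a kinase of cytokine receptors, rose from 2116, 2206 and 2251 to 3541, 3360 and 3565 in floxed and from 2369, 2256 and 2139 to 6706, 6883 and 7144 in LysMcre-labelled libraries (interaction 0.95 ± 0.07, adjusted p = 5.42e-07). Receptor chains Il6ra and Ifnar1 had interactions of 0.67 and 0.61. Jak1 belonged to the class that responded in floxed libraries only, with a change of -0.35 log2 there.

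Secreted chemokines and cytokines divided into a strongly amplified few and a majority with no call. Of 24 tested 8 had a positive and 0 a negative interaction (median 0.28; 8 and 1 with equal totals). Cxcl2, like Cxcl3 a CXCR2 ligand, reached 1479, 1302 and 1954 in floxed and 11583, 15168 and 13263 in LysMcre-labelled libraries from 155, 111 and 158 and 221, 142 and 137 (interaction 2.87 ± 0.26, adjusted p = 2.37e-06). Csf1, the macrophage growth factor, reached 972, 748 and 1324 and 6676, 7258 and 10244 (interaction 2.62, adjusted p = 2.78e-06). Il1rn, the secreted antagonist of the interleukin 1 receptor, was at 3246, 3354 and 3390 in floxed libraries with G-CSF against 3425, 3221 and 3563 without, and rose only in LysMcre-labelled libraries, from 2960, 3234 and 3239 to 10068, 9415 and 10405 (interaction 1.69, adjusted p = 1.13e-08). Il1b itself rose by 3.09 and 3.44 log2 with no interaction call (adjusted p = 0.426), and Tnf had none either (adjusted p = 0.404).

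NF-kappaB subunits and their inhibitors had 10 positive and 0 negative interactions of 16 (median 0.43; 7 and 1 with equal totals). Nfkbia, which holds NF-kappaB in the cytoplasm, went from 2855, 2682 and 2693 to 5071, 4674 and 5139 in floxed and from 2618, 2660 and 2467 to 7293, 8412 and 8021 in LysMcre-labelled libraries (interaction 0.76, adjusted p = 1.48e-05). The precursor subunit Nfkb1 had 0.68 and the inhibitor Nfkbie 0.68; for Nfkbie the floxed change of -0.23 did not pass (adjusted p = 0.108).

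Immediate early genes and brakes of the MAP kinase pathway had the largest median of the 19 pathway lists on the deposited scale, 0.82, with 14 positive and 0 negative calls of 25 (11 and 0 with equal totals). Egr2, a zinc finger factor, reached 72.6, 56 and 112 in floxed and 459, 527 and 548 in LysMcre-labelled libraries (interaction 2.33 ± 0.38, adjusted p = 0.000357). Dusp5, a phosphatase that inactivates ERK, reached 563, 558 and 585 and 1699, 1933 and 2089 (interaction 1.5, adjusted p = 1.54e-06). Nr4a2, an orphan nuclear receptor, was low at 37, 46 and 31.1 in LysMcre-labelled libraries with G-CSF, and its call (adjusted p = 0.0242) was lost without floxed untreated replicate 2, LysMcre-labelled G-CSF replicate 2 or LysMcre-labelled untreated replicate 3.

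Surface receptors for bacterial products and cytokines followed the same course, 15 positive and 2 negative of 26 (median 0.42; 12 and 4 with equal totals). Cd14, the lipopolysaccharide co-receptor, rose from 432, 584 and 600.4 to 4390, 4589 and 4602 in floxed and from 740.4, 562 and 566 to 13440, 17248 and 20267 in LysMcre-labelled libraries (interaction 1.68 ± 0.21, adjusted p = 3.22e-05). Its partner Tlr4 reached 2899, 3211 and 3116 and 5765, 5776 and 5866 (interaction 0.98). Ccrl2, a chemerin-binding receptor, had 1.09 (adjusted p = 0.0285), a call lost in 8 of the 23 other settings and left-out libraries tried. The negative calls were Cxcr4, the receptor that retains neutrophils in the marrow, at -0.53, and the integrin chain Itgal at -0.40.

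Genes that protect cells from death and genes that promote it were both among the amplified rises. Bcl2l1, which encodes the survival protein BCL-XL, went from 911, 826 and 939 to 2866, 2767 and 2472 in floxed and from 872, 921 and 922 to 6919, 7699 and 8089 in LysMcre-labelled libraries (interaction 1.46, adjusted p = 1.91e-07). Bcl2l11, which encodes its death-promoting antagonist BIM, went to 1472, 1473 and 1621 and 4700, 5363 and 5504 (interaction 1.80, adjusted p = 1.03e-07). The death receptor Fas rose only in LysMcre-labelled libraries (interaction 0.99), and Bax was reversed on the deposited scale (-0.33 and 0.34 log2). In all, 7 of 21 had a positive and 3 a negative call (median 0.17; 7 and 4 with equal totals).

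Glucose uptake and glycolysis had 13 positive and 2 negative calls of 20 (median 0.41; 10 and 5 with equal totals). Pfkp, a phosphofructokinase, responded only in LysMcre-labelled libraries, from 1223, 1163 and 1201 to 2671, 3157 and 3528 beside 1047, 1257 and 1223 to 1180, 1277 and 1384 (interaction 1.25, adjusted p = 8.42e-06); its exons overlap those of Pitrm1. Pfkfb3, which makes the activator of phosphofructokinase, had 1.13 and Pfkl 1.11. The 2 main glucose transporters moved apart: Slc2a1 had 1.09 with a rise in both genotypes, and Slc2a3 had -1.09 with a fall, from 25484, 26701 and 26020 to 12352, 11543 and 11820, in LysMcre-labelled libraries only.

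Antioxidant genes had 8 positive and 5 negative calls of 18 (median 0.39), a majority that turned to 5 and 6 with equal totals. The positive side held Slc7a11, the cystine importer, at 4582, 5064 and 5267 against 13533, 15849 and 17483 under G-CSF (interaction 1.85, adjusted p = 5.39e-07), Txnrd1, thioredoxin reductase, at 4155, 3994 and 4261 against 13394, 13559 and 13473 (interaction 1.71, adjusted p = 1.13e-08), and Srxn1, sulfiredoxin, at an interaction of 1.17. On the negative side were Gpx1, the cytosolic glutathione peroxidase (-0.87), Prdx5 (-0.56), Gpx4, Txn1 and G6pdx. The NADPH oxidase, the enzyme that these cells use to make superoxide, had 1 positive and 4 negative calls of 8 (median -0.27; 0 and 7 with equal totals). Cybb, its catalytic subunit, fell from 44384, 39461 and 44937 to 24725, 22318 and 21967 in floxed and from 38215, 34729 and 42936 to 12919, 10568 and 11330 in LysMcre-labelled libraries (interaction -0.83 ± 0.13, adjusted p = 0.000231). Ncf1, the organiser subunit, had -0.63 and the proton channel Hvcn1 -0.55. Exons of Ncf1 overlap those of Gtf2ird2 and exons of Hvcn1 those of Tctn1, on the other strand, so reads of both are uncertain. Rac1, a small GTPase with many other roles, was the positive call on the deposited scale (0.27) and was not called with equal totals.

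Among genes of the endoplasmic reticulum 6 of 19 had a positive and 0 a negative interaction, beside 10.9% and 11.5% of all genes (limma; median 0.25; 4 and 2 with equal totals). Xbp1, a factor of the unfolded protein response, rose to 6058, 6134 and 5838 in floxed and 16489, 17404 and 18018 in LysMcre-labelled libraries (interaction 1.40, adjusted p = 5.79e-08); the chaperone Hspa5 had 0.60 and the stress sensor Atf6 0.55. Arginine, nitric oxide and polyamine enzymes had 7 positive and 1 negative of 14 (median 0.38; 4 and 2 with equal totals). Slc3a2, the heavy chain of several amino acid transporters, was at 3451, 3323 and 3260 against 9667, 9908 and 10369 under G-CSF (interaction 1.47, adjusted p = 4.74e-08). Nos2, the inducible nitric oxide synthase, reached 1846, 1639 and 1817 and 6156, 8533 and 8608 with G-CSF from 1.07, 0.857 and 1.88 and 6.31, 3.44 and 3.71. Its call (interaction 0.86, adjusted p = 0.047) rests on a baseline at or near the 3-read level and was lost in 15 of 23 alternatives, among them edgeR on whole reads (0.45, adjusted p = 0.868). Arg1, arginase, was low throughout (53.2, 31.8 and 29 in LysMcre-labelled libraries with G-CSF) and lost its call in 13 of the 21 alternatives in which it had a value.

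Lipid mediator enzymes were called evenly, 4 positive and 4 negative of 13 (median 0.06, -0.11 with equal totals and -0.02 with quantile normalization). Sphk1 and Ptgs2, the inducible cyclooxygenase (103, 105 and 147 against 435, 334 and 329 under G-CSF, interaction 1.57), stood on one side, and Ptges, prostaglandin E synthase (-0.93), and Lta4h, which makes leukotriene B4 (-0.82), on the other. Cholesterol synthesis had 7 positive and 1 negative of 20 (median 0.21), of which 1 and 1 remained by count with equal totals. Insig1 and Idi1 had 0.42 and 0.47, and Mvk, mevalonate kinase, rose in floxed libraries only (interaction -0.56). The call of Idi1 was lost in 2 of 23 alternatives, 1 of them equal totals.

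Amplified falls took in granule proteins. Among 17 genes of late-forming granules 0 had a positive and 9 a negative interaction (limma; median -0.44; 0 and 15 with equal totals). Retnlg, a resistin-like secreted protein and among the most abundant transcripts here, fell from 149194, 155053 and 163322 to 62770, 68896 and 56918 in floxed and from 133406, 148917 and 156243 to 17703, 16562 and 17382 in LysMcre-labelled libraries (interaction -1.77 ± 0.12, adjusted p = 1.39e-07). Pglyrp1, a peptidoglycan-binding protein, had -1.27 and Camp, the cathelicidin precursor, -0.93. The genotypes overlapped for all 3 without G-CSF and did not with it. With G-CSF 45.55% of all tested genes and 98.75% of interaction calls did not overlap, and without it 9.335% and 11.66%. These 3 genes were picked by their interaction call, so their separation with G-CSF adds no support. Of 8 primary granule genes 0 had a positive and 1 a negative interaction (limma, edgeR and DESeq2; median -0.36; 0 and 1 with equal totals), a share near the 11.5% of all genes. The called gene was Prss57, a serine protease (-1.24, adjusted p = 0.00019), whose exons overlap those of Fstl3 on the other strand; Mpo, Elane, Prtn3 and Ctsg were not.

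The 5 named amplified falls were mostly of genes better known from other tissues. Lhx1, a developmental LIM homeobox factor, fell from 774, 877 and 813 to 173, 187 and 142 in floxed and from 744, 997 and 705 to 26.6, 29.5 and 33.3 in LysMcre-labelled libraries (interaction -2.42 ± 0.19, adjusted p = 6.32e-07). Sstr4, a somatostatin receptor, fell from 153, 188 and 231 to 15.2, 9.63 and 7.53 in floxed libraries, and from 164, 193 and 159 to 2.31, 1.18 and 0 in the others, under the 3-read level. Aplnr, the apelin receptor, Mmp23, a membrane-anchored metalloproteinase, and the unannotated RP24-325N9.4 ended at 0, 0 and 1.07, at 3.47, 1.18 and 0 and at 0, 4.72 and 1.07 in LysMcre-labelled libraries. With counts this low, their fitted interactions of -2.57, -2.84 and -2.78 depend on the pseudocount; that of Aplnr was -0.70 and not called (adjusted p = 0.0915) with a pseudocount of 10.

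Blunted responses were few. The 28 blunted rises had a median of 1.20 log2 in floxed and 0.60 in LysMcre-labelled libraries, and the 37 blunted falls had medians of -1.03 and -0.39. Fabp5, a fatty acid-binding protein, rose from 291, 336 and 277 to 1742, 1875 and 1713 in floxed but from 343, 277 and 302 to 1151, 923 and 977 in LysMcre-labelled libraries (interaction -0.84 ± 0.14, adjusted p = 0.000478). Foxd4, a forkhead factor, reached 2768, 2429 and 2073 and 1195, 1340 and 1398 (interaction -0.81). Klra17, a lectin-like receptor of the Ly49 family, reached 509, 476 and 434 and 257, 254 and 239 (interaction -0.71); this is a multigene family, so its reads are uncertain. Retn, resistin, had -0.73, a call lost in 1 of 23 alternatives. Tctn3, a protein of the ciliary transition zone, had -0.76 and an adjusted p of 0.0497, a call lost in 15 of 23 alternatives.

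Cldn1, a tight junction protein, gave the clearest blunted fall. It dropped from 411, 353 and 410.3 to 58.5, 69.2 and 58.4 in floxed libraries and went from 401, 434 and 469 to 356, 356 and 376 in LysMcre-labelled ones. The LysMcre-labelled response was small but passed (-0.26 log2, adjusted p = 0.0341), against -2.64 in floxed libraries (interaction 2.38 ± 0.14, adjusted p = 4.74e-08). Eml1, a microtubule-associated protein, ended at 8.67, 6.13 and 9.42 and 33.5, 42.5 and 38.6 (interaction 1.99). Olr1, a receptor for oxidised low-density lipoprotein, ended at 179, 173 and 203 and 341, 373 and 531 (interaction 1.03), and Slc37a2, a sugar-phosphate exchanger, had 0.93. Col1a1, a collagen chain, ended at 41.2, 28 and 40.5 and 105, 68.4 and 69.8 (interaction 1.29). It is also a stromal marker. The 8 stromal and endothelial markers in the table summed to 914.1 to 1002 in floxed and 1471 to 1715 in LysMcre-labelled libraries with G-CSF. Of these markers 2 had a positive and 0 a negative interaction call. Their median interaction was -0.24 (range -1.13 to 3.35), so the sums do not stand for each member. The part of stromal cells in the Col1a1 result was not tested.

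Reversed genes numbered 67, of which 19 differed in response by at least 2-fold. The 41 genes that rose in LysMcre-labelled libraries had a median of 0.34 log2 there and -0.38 in floxed libraries, and the 26 that fell had -0.35 and 0.31. The sign of changes this small depends on the scaling. With equal totals 73 genes were called reversed, and how many of them are the same genes was not counted. Nt5e encodes CD73, the surface enzyme that turns AMP into adenosine. It fell from 2457, 2313 and 2606 to 1173, 1157 and 1135 in floxed libraries and rose from 2280, 2593 and 2550 to 4031, 4279 and 6074 in LysMcre-labelled libraries (interaction 2.02 ± 0.16, adjusted p = 5.7e-07). Mpp7, a membrane scaffold, had the largest reversal among named genes, ending at 245, 201 and 229.7 in floxed and at a widely spread 741, 1286 and 1555 in LysMcre-labelled libraries (interaction 2.54, adjusted p = 1.88e-05). Egln3, an oxygen-dependent prolyl hydroxylase that marks hypoxia-inducible factor for destruction, ended at 378, 401 and 369 and 971, 1266 and 1388 from 652, 678 and 605 and 657, 702 and 593 (interaction 1.63, adjusted p = 2.75e-06). Pdpn, podoplanin, had 1.71 at levels under 100 normalized counts, and Sh2d5, an adaptor whose exons overlap those of Kif17 on the same strand, had 1.67.

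In the opposite order, Mov10, an RNA helicase that restrains retroelements, rose from 6432, 6656 and 7019 to 11011, 10342 and 9058 in floxed and fell from 6022, 6708 and 6453 to 4097, 4271 and 4480 in LysMcre-labelled libraries (interaction -1.17 ± 0.10, adjusted p = 1.08e-06). Slc28a2, a nucleoside importer, ended at 3109, 3111 and 2907 and 1467, 1486 and 1523 (interaction -0.93). Apobec1, an RNA-editing cytidine deaminase, ended at 2602, 2670 and 2650 and 1502, 1446 and 1513 (interaction -0.81). Cd46, a complement regulator, had -0.82 and Mctp2, a membrane protein with C2 domains, -0.78. For Mctp2 the LysMcre-labelled fall only just passed (-0.14 log2, adjusted p = 0.0449).

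Responses called in LysMcre-labelled libraries only comprised 361 rises and 300 falls. In 303 and 251 of these the 95% interval of the floxed response lay within 1.5-fold of no change, and named genes were taken from those. Marcksl1, an actin-binding substrate of protein kinase C, went from 1961, 1816 and 2179 to 2134, 2177 and 2427 in floxed libraries (adjusted p = 0.0544) and from 1750, 1798 and 1811 to 7522, 7903 and 8689 in LysMcre-labelled libraries (interaction 1.99 ± 0.10, adjusted p = 1.61e-08). Thbs1, the secreted matrix protein thrombospondin-1, was at 9738, 10506 and 12753 against 36895, 48963 and 47586 under G-CSF, from 8818, 9437 and 12756 and 12705, 9552 and 10016 without it (interaction 1.95, adjusted p = 9.45e-06). Abcc1, an exporter of glutathione conjugates and leukotriene C4, reached 3805, 4311 and 4159 in LysMcre-labelled libraries beside 1027, 1044 and 1245 in floxed ones (interaction 1.97). Polk, a translesion DNA polymerase, had 2.23 and Dab2, an endocytic adaptor, 2.53.

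Among the falls, Rnf144a, a ubiquitin ligase, was at 10254, 9303 and 8804 in floxed libraries from 9844, 9427 and 10317, and went from 9073, 9168 and 9215 to 3376, 3606 and 3911 in LysMcre-labelled ones (interaction -1.27 ± 0.09, adjusted p = 2.69e-07). Ifit1bl2, of the interferon-induced IFIT family, ended at 983, 971 and 905 and 244, 177 and 191 (interaction -1.78); it has close paralogs, so its reads are uncertain. Arhgef37, Slc25a27 and Fstl3 had -1.77, -1.31 and -1.29 at levels of about 100 normalized counts without G-CSF. Exons of Fstl3 overlap those of Prss57 on the other strand, which was itself called at -1.24. Reads of this pair cannot be told apart without a strand setting.

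Responses called in floxed libraries only were rarer, 52 rises and 57 falls, of which 45 and 48 had a LysMcre-labelled interval within 1.5-fold of no change. Mcam, the adhesion molecule CD146, rose from 1075, 759 and 741 to 3519, 2960 and 2536 in floxed libraries and was at 852, 753 and 750.2 and 769, 672 and 809.5 in LysMcre-labelled libraries (interaction -1.88 ± 0.19, adjusted p = 5.51e-06). The predicted gene Gm10687, on the opposite strand over its exons, was itself called as reversed (interaction -2.78), and reads of the pair cannot be told apart without a strand setting; it falls outside the naming rule and was chosen after its values were seen. Nt5c3, a cytosolic nucleotidase, ended at 1100, 1050 and 1041 and 609, 574 and 519.6 (interaction -0.91), and Wdr19, a part of the intraflagellar transport machinery, at 147, 146 and 136 and 70.5, 70.8 and 63.3 (interaction -1.07). Rnase4, which shares exons with Ang, had -0.88, a call lost in 5 of 23 alternatives. Prg2, the major basic protein of eosinophils, had -0.83, and LysMcre-labelled untreated replicate 3 stood high at 989 for it; its call was lost in 9 of 23 alternatives. The 9 eosinophil, basophil and mast cell markers summed to 2825 to 3855 in floxed and 3124 to 3213 in LysMcre-labelled libraries with G-CSF, and their part in this result was not tested.

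Grk5, a kinase that desensitises chemoattractant receptors, had the largest interaction of the 5 named falls. It went from 771, 835 and 789 to 289, 356 and 373 in floxed libraries, and LysMcre-labelled libraries held 879, 921 and 724 without and 1023, 881 and 974 with G-CSF (interaction 1.43 ± 0.15, adjusted p = 5.76e-06). F3, tissue factor, which starts coagulation, was at 54.2, 43.8 and 44.3 and 72.8, 97.9 and 83.7 under G-CSF (interaction 0.81). Elk3, an ETS factor whose exons overlap those of Cdk17, had 0.75, and RP23-312B17.3 had 1.01. AI413582 had 0.73, and its exons overlap those of Hmga1 on the other strand.

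In some lists G-CSF responses were present and few genotype differences were called. Of 28 interferon-stimulated genes 19 rose and 1 fell in floxed libraries and 18 rose and 5 fell in LysMcre-labelled libraries, while 2 had a positive and 1 a negative interaction (median 0.01, -0.16 with equal totals and -0.03 with quantile normalization). Those were Irf1 at 0.42 and Irf9 at 0.58, both interferon-responsive transcription factors, and Cmpk2, a nucleotide kinase, at -1.53; Irf9 shares exons with Rnf31 and lost its call in 6 of 23 alternatives. Nucleolar ribosome biogenesis had 1 positive (Nop58, 0.73) and 1 negative call (Polr1a, the large subunit of RNA polymerase I, -0.88) of 20, with 15 and 18 rises in the 2 genotypes (median interaction 0.32; 0 and 1 with equal totals, 4 and 1 with quantile normalization); both shares are under those of all genes. None of 22 cell cycle genes was called (limma; edgeR and DESeq2 also gave 0), and their interactions lay between -0.21 and 0.31. A missing call does not show equal responses.

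**Figure D5:**
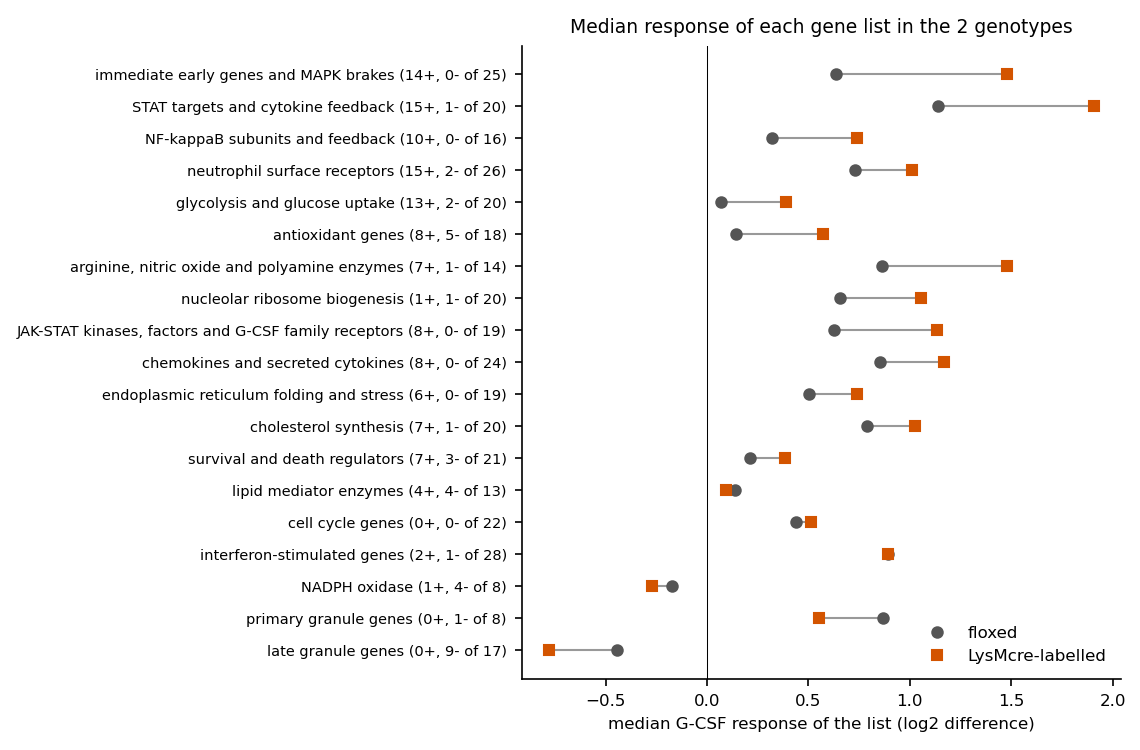
Median log2 change with G-CSF of each of the 19 pathway lists in floxed (circles) and LysMcre-labelled (squares) libraries, ordered by median interaction, with the counts of positive and negative interaction calls beside each name. STAT targets move from 1.14 to 1.91 and late granule genes from -0.44 to -0.78, while interferon-stimulated genes stand at 0.89 in both.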

How the data were processed

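RNA was sequenced from 12 libraries in 4 groups of 3. The deposited values have a signal unit: per the file's values, the authors divided gene reads by 1 median-of-ratios size factor per library. Dividing each value by that of 1 read in its library, the inverse of the size factor, gave whole reads (within 0.01) in 100% of cases. Per the submitters' processing notes the build was mm10. Aligner, counter, gene models and strandedness: not given in the sources used here. The planned design expected normalized counts, so limma stayed the main test although whole reads proved recoverable. The table had 2 columns without a sample, both empty, and 17 gene names turned into dates. Within each group, pairs of libraries differed beyond counting noise (chi-square per row 3.55 to 12.87), and all were used.

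Values were taken as log2(value + 1), and rows with a mean under 10 were left out. The 4 group means were fitted together in limma 3.58.1 (R 4.3.3) with a trended prior; tests were two-sided and p-values adjusted over all 13915 genes by the Benjamini-Hochberg method. Log2 changes on this scale understate those of low genes. Fold values are ratios of mean normalized counts. Alternatives were edgeR 4.0.16 and DESeq2 1.42.0 on the recovered reads, other scalings, pseudocounts, filters, priors and thresholds, a replicate block, and each library left out.

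Named genes were Socs3 and Lyz2, the 5 largest interactions per class and direction among genes whose highest group mean reached 50, and up to 3 called members per pathway list; numbered predicted genes, Riken clones, small RNAs, mitochondrial genes, pseudogenes, immunoglobulin and T cell receptor segments and date-like names were left out. Other list members are named to account for a count and were chosen after their values were seen. The 19 pathway and 10 marker lists and the members were chosen with earlier results of these data known. Gene positions and overlaps are from GENCODE M21, which matched 13513 symbols to 1 gene and left 422 unmatched. Overlaps are flagged for some named genes only. Exons of others, among them Cish, Cd46, Dab2, Sphk1 and Thbs1, also overlap annotated genes.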

Additional observations from a re-analysis of the deposited data

Results flagged for a closer look

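The G-CSF response differed between the genotypes by the test of the difference itself for 3112 genes. By class these were 2201 amplified, 65 blunted, 67 reversed, 661 responding in LysMcre-labelled libraries only and 109 in floxed libraries only. The reversed genes are singled out because the 2 genotypes moved in opposite directions on the deposited scale. For small changes that direction depends on the scaling. Named reversed genes that rose in LysMcre-labelled libraries were Mpp7 (interaction log2 2.54), Nt5e (2.02), Pdpn (1.71), Sh2d5 (1.67) and Egln3 (1.63). Those that fell there were Mov10 (-1.17), Slc28a2 (-0.93), Cd46 (-0.82), Apobec1 (-0.81) and Mctp2 (-0.78).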

How the results depend on the processing

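The total was 2669 to 3142 calls with any 1 library left out, 3217 with edgeR (3045 shared with limma) and 3043 with DESeq2 (2905 shared; 1352 adjusted p not given). Of the named genes 89 kept their call in each of up to 23 alternatives, 12 lost it in at least 1, and none turned direction. These alternatives leave out the threshold of 0.01, at which 14 named genes were not called. Equal totals gave 896 positive and 2994 negative calls. Array weights gave 118 blunted and 108 reversed genes. At a threshold of 0.01 there were 1430 amplified, 28 blunted, 30 reversed, 391 LysMcre-only and 54 floxed-only genes. Leaving out 1 library gave 43 to 72 blunted and 43 to 80 reversed genes; both lowest counts came without LysMcre-labelled G-CSF replicate 2. The cause of these shifts was not tested, apart from the stricter threshold, which calls fewer genes by construction.

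Replicate numbers are shared between groups, but nothing says that they pair libraries, and same-numbered libraries of 1 genotype did not all deviate together (r of 0.321, 0.199 and 0.061 in floxed and 0.214, -0.032 and 0.030 in LysMcre-labelled libraries). With the replicate block there were 2967 calls, of which 1426 were positive and 1541 negative, and 2890 were shared with the fit without it. By class the block gave 2108 amplified, 62 blunted, 56 reversed, 627 LysMcre-only and 107 floxed-only genes. Among named genes the block took the call from Tctn3, Arg1 and Nos2. Depth limits genes near 3 reads, where 0 to 3 reads decide the fitted value.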
